A study of Mus musculus with 8 samples.

Results

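The genes described here are those of the DNA methylation machinery in mouse regulatory T cells (Treg cells): the methyltransferases Dnmt1, Dnmt3a and Dnmt3b, the cofactor Uhrf1, the oxidases Tet1, Tet2 and Tet3, and the methyl-CpG reader Mbd2. They were taken by symbol from a table of 24453 genes, and all 8 were found and passed the filter on low values. The table holds 8 libraries of messenger RNA from T cells sorted as CD4-positive and Foxp3-positive, with 2 libraries of T138, 3 of T143 and 3 of wild type (WT). Mice of T138 and T143 derive from nuclear transfer with a T cell nucleus, so that T cells of a line carry the receptor of that founder cell, and each line is a single clone. Per the series, T138 stands for Treg cells that arise naturally, T143 for Treg cells whose development an agonist induces, and their comparison asks whether the cells form distinct subsets. Every library, WT included, has the strain label NOD-Foxp3GFP-Rag1-/-, no treatment, and no age in the labels used here. The WT libraries held T cell transcripts, with Cd3e at 7031 to 12487, and whether the WT mice lack Rag1 was not tested. Any difference in Rag1 or in receptors between the lines and WT cannot be told apart from line in comparisons with WT.

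Methyl groups on cytosines of CpG sites are written by methyltransferases and copied at replication. Dnmt1 is the maintenance enzyme, which Uhrf1 brings to the half-methylated DNA behind the replication fork, while Dnmt3a and Dnmt3b can methylate unmodified sites. The TET enzymes oxidise methylcytosine, the first step of its removal, and Mbd2 binds methylated CpG and recruits the nucleosome remodelling and deacetylase complex NuRD. In Treg cells a conserved intronic element of Foxp3 is kept unmethylated, and stable Foxp3 expression is known to depend on this state.

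The libraries held 7.83 to 22.64 M recovered reads, and the member with the fewest reads, Dnmt3b, had 100 to 272. T143 libraries held 7.83, 12.25 and 12.6 M, fewer than every T138 and WT library (14.64 to 22.64 M). Depth and line therefore cannot be told apart in comparisons of T143. Values are normalised read counts, the authors' reads divided by a factor per library. The 8 T cell markers, Foxp3 among them, were detected in every library. They summed to 0.7 to 0.823% of signal in T138 and WT, and to 0.598, 0.463 and 0.385% in T143. Foxp3 enters this sum, and in T143 against T138 it was the only marker of the list that passed. The median log2 change of the list there was -0.07, with Cd4 at 0.06 and Cd3e at -0.76. Transcripts of other cell types also moved with the groups, and T143 replicate 3 had the least T cell and the most neutrophil signal. Neutrophil markers (10 genes) summed to 0.141 and 0.0263% of a T138 library, to 0.559, 0.944 and 3.37% of a T143 library and to no more than 0.00525% of a WT library, where 3 to 6 of the 10 were at 0, Mmp8 in all 3 libraries. Of these 10, 8 were higher in T143 than in T138. Dendritic cell and MHC class II markers (9 genes) summed to 0.499 to 0.666% (T138), 0.0445 to 0.184% (T143) and no more than 0.011% (WT). Monocyte and macrophage markers (8 genes) summed to 0.0171 to 0.0293% (T138), 0.0593 to 0.218% (T143) and no more than 0.00257% (WT), and 8 of 8 were higher in T143 than in WT. Erythroid markers (10 genes) summed to 0.00912 to 0.0157% (T138), 0.0235 to 0.125% (T143) and no more than 0.0082% (WT). Xist, a transcript of the inactive X chromosome, was at 19143 to 24992 in T143 and at most 129.9 elsewhere, so that sex and line cannot be told apart in comparisons of T143. The source names of T143 replicate 1 and WT replicate 1 name a mouse of another group than their titles, which were used here. Their transcripts lay with the titled groups: T143 replicate 1 had Xist at 19143, the Y-linked Ddx3y at 0 and Foxp3 at 3920, and WT replicate 1 had Ddx3y at 2923, Foxp3 at 29773 and 0.011% MHC class II signal. The part of these transcripts in the results on the members was not tested. In bulk samples fewer cells of a type and less RNA per cell cannot be told apart.

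Of the 8 members, 2 passed the test in each of the 3 comparisons, and 5 genes passed in none. Tet1 rose and Tet2 fell in T143 against T138, Dnmt3a and Tet1 were lower in T138 than in WT, and Tet2 and Dnmt3a were lower in T143 than in WT. The test was limma on log2(value + 1) over 15547 genes, and a gene passed with a two-sided Benjamini-Hochberg adjusted p under 0.05. Among all tested genes 21.0% passed between T143 and T138 (10.8% higher and 10.2% lower in T143). Between T138 and WT 11.0% passed (5.74% higher and 5.30% lower in T138), and between T143 and WT 23.8% (11.7% higher and 12.1% lower in T143). For both T143 comparisons 2 of 8 is near the background, and for T138 against WT 2 of 8 stands beside 11.0%. With only 8 genes and no test of the set, none of these counts is a result about the members. The comparisons share libraries and are not independent of each other. How many of all tested genes have groups that do not overlap was not computed, so separation of a member's groups is a description.

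**Figure D1:**
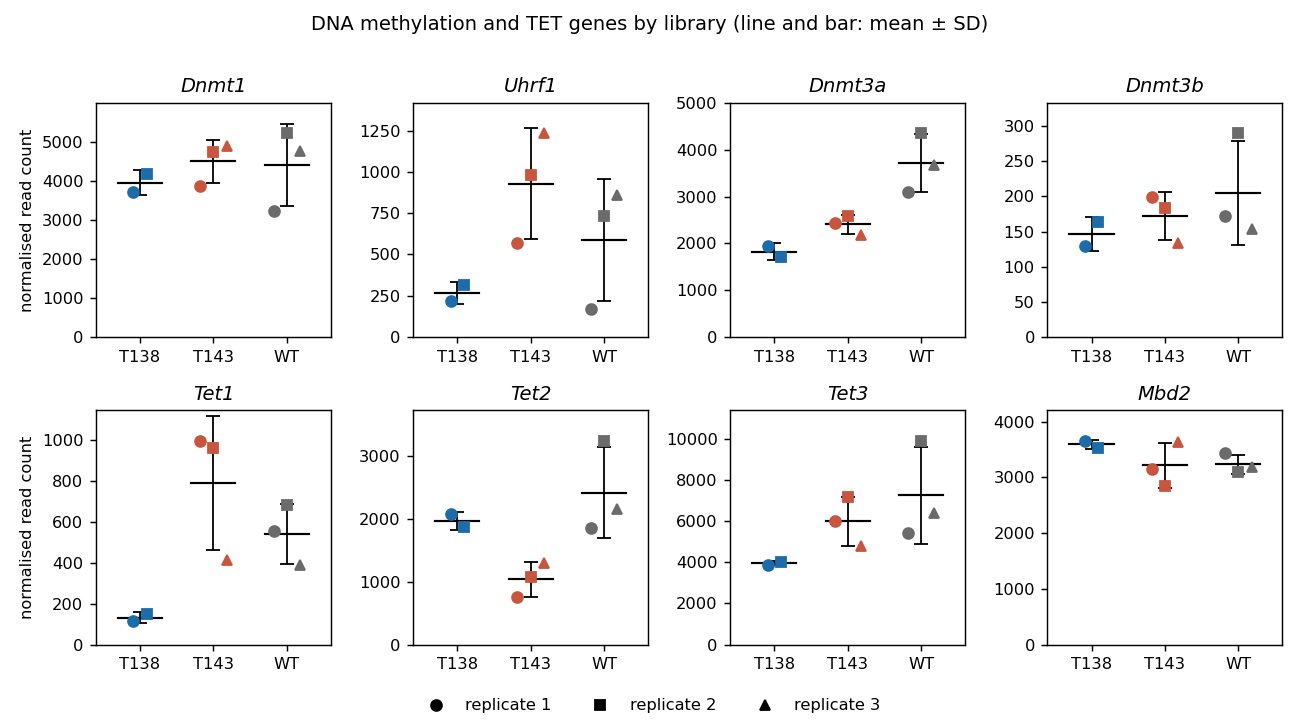
Normalised read count of each gene in the 8 libraries, by group; symbols mark replicates, and the line and bar give the mean and SD of 2 (T138) or 3 (T143, WT) libraries. Dnmt3a is lower in all 5 libraries of the lines than in the 3 WT libraries, Tet1 lies lowest in T138, at 113.2 and 150.7, and Tet2 lies lowest in T143, at 748.3 to 1301.

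Dnmt1 (chromosome 9, 20907206 to 20959888, minus strand) measured 3723 and 4172 (T138), 3865, 4749 and 4885 (T143) and 3221, 5214 and 4764 (WT). The groups overlapped, and the lowest and the highest library were both WT. The log2 change was 0.18 ± 0.21 (SE) between T143 and T138, -0.13 ± 0.21 between T138 and WT, 0.05 ± 0.18 between T143 and WT, and none passed (limma, adjusted p = 0.558, 0.763 and 0.864). The 95% intervals reached from -0.27 to 0.64, from -0.58 to 0.33 and from -0.35 to 0.46.

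Uhrf1, which guides Dnmt1 to newly replicated DNA (chromosome 17, 56303337 to 56323486, plus strand), varied far more. It measured 219.5 and 315 (T138), 571.2, 982.5 and 1234 (T143) and 169.4, 732.7 and 859.6 (WT). All T143 libraries exceeded both T138 libraries, while WT replicate 1 lay below every other library and the remaining WT libraries lay within the T143 range. The change for T143 against T138 was 1.75 ± 0.63 on the log2 scale and did not pass (limma, adjusted p = 0.077). This change passed in only 5 of 22 alternatives. It passed without WT replicate 1, which enters through the shared estimate of the spread (adjusted p = 0.00638), and with DESeq2 on recovered reads (0.00555), and over all alternatives the adjusted p ran from 0.00532 to 0.39. T138 against WT gave -0.85 ± 0.63 (adjusted p = 0.453). Without WT replicate 1 this became -1.59 and passed (adjusted p = 0.0256), but T138 against WT passed in only 2 of 22 alternatives. T143 against WT gave 0.90 ± 0.56 and did not pass (adjusted p = 0.286).

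The 8 libraries differed in transcripts of dividing cells, and the libraries lowest and highest in them were also lowest and highest in Uhrf1. The mean log2(value + 1) of 22 proliferation genes was 8.37 and 8.24 (T138), 9.28, 10.14 and 10.37 (T143) and 7.72, 9.12 and 9.33 (WT). WT replicate 1 was lowest and T143 replicate 3 highest. Mki67, a marker of cycling cells, was at 504.2 in WT replicate 1 and at 4614 and 3536 in the other WT libraries. Of the 22 genes 10 rose in T143 against T138 and 6 in T143 against WT, with none lower, among them the replication clamp gene Pcna (log2 change 1.12 ± 0.21 and 0.94 ± 0.19; limma, adjusted p = 0.00453 and 0.00527). Among all tested genes 10.8% were higher in T143 than in T138 and 11.7% higher than in WT. The median change of the list was 1.6 against T138 and 1.21 against WT, beside 0.15 and 0.05 over all tested genes. Without T138 replicate 1 and T143 replicate 3, the libraries with the most neutrophil signal of their groups (alternatives for lists were added after the data were seen), 3 rose in each comparison, and the Pcna call against T138 ended (adjusted p = 0.0639). Without T143 replicate 1 and WT replicate 1 it was 17 and 9. No gene of the list passed for T138 against WT (limma), whereas 5 fell there without T143 replicate 1 and WT replicate 1. Neutrophil and erythroid transcripts also differed between these libraries, and their part in the result was not tested.

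**Figure D2:**
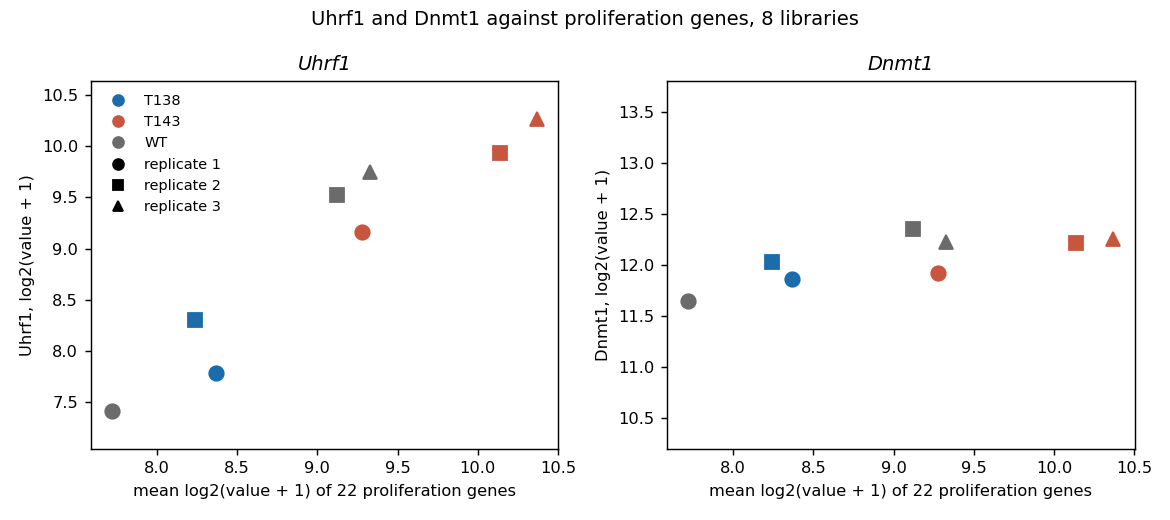
Log2(value + 1) of Uhrf1 (left) and Dnmt1 (right) in each library against the mean log2(value + 1) of 22 proliferation genes; both vertical axes span the same range of log2 units, and colours give groups and symbols replicates. Uhrf1 runs from 7.41 in WT replicate 1 to 10.27 in T143 replicate 3, and Dnmt1 from 11.65 to 12.35.

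Inside a library, and per transcript length, there were 8.63 and 11 Uhrf1 transcripts for every 100 of Dnmt1 (T138), 21.6, 30.3 and 37 (T143) and 7.7, 20.6 and 26.4 (WT). This ratio does not depend on the scaling of the libraries, and it separated T143 from T138 but not from WT.

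The start regions of both genes are shown because Uhrf1 and Dnmt1 act together at replication, and E2F factors drive many genes of that phase. The sequences are RefSeq windows of GRCm38.p6, with 250 bases before and 50 after an annotated start. Of the 8 genes, 7 were matched to such windows. They were searched on both strands for TTTGGCGC and TTTCGCGC (2 forms of the E2F motif), TTCCCGCC (E2F), CCGGAAGT (ETS), TGACGTCA (CRE), GGGGCGGGG (SP1) and CCAAT. Capitals mark the E2F, ETS and CRE matches. Of 3 windows for Dnmt1 and 2 for Uhrf1, the ones printed were chosen after the matches were seen, and their starts lie 7265 and 992 bases from the start of the GENCODE model of the transcript that the table lists. The windows are Dnmt1 chr9:20952574-20952873 (minus strand) and Uhrf1 chr17:56304063-56304362 (plus strand).
Dnmt1: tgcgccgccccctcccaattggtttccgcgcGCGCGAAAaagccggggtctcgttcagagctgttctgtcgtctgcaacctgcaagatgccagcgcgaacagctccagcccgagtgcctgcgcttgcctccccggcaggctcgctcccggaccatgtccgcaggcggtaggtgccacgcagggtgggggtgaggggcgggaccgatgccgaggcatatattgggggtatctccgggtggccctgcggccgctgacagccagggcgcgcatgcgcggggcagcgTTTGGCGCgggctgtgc
Uhrf1: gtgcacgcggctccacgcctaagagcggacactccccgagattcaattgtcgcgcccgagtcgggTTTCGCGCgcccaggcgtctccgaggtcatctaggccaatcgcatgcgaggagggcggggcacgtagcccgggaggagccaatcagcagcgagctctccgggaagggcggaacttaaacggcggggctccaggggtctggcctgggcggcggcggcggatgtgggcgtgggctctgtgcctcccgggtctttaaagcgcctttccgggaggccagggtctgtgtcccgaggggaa
TTTCGCGC occurred once in each of these windows, in Dnmt1 on the opposite strand, and in 0.32% of 32851 promoter windows. Dnmt1 also held TTTGGCGC, found in 0.51% of windows. Both motifs contain CpG, and each printed window held 33 CpG sites, where 91.4% of all windows held fewer and the median was 7. Shares among windows of like CpG content were not computed, so these shares do not measure how rare the matches are there. TTCCCGCC, found in 2.19%, occurred in the other Uhrf1 window, CCGGAAGT (3.89%) and TGACGTCA (1.79%) in none of the members' windows, and GGGGCGGGG is in 11.45% and CCAAT in 37.41% of all windows. Neither TTTCGCGC nor TTTGGCGC occurred in the other windows of Dnmt1 and Uhrf1 or in those of Dnmt3a, Dnmt3b, Tet1, Tet2 and Tet3. Those other windows include the ones nearest the start of the listed transcript, 0 bases away for Dnmt1 (2 CpG sites) and 16 for Uhrf1 (12 CpG sites). As the printed windows were chosen for their matches, this contrast supports nothing. A match is only a match of letters, and binding was not measured here.

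Dnmt3a, the main enzyme of new methylation in mature T cells (chromosome 12, 3801559 to 3914443, plus strand), was highest in WT. It measured 1949 and 1704 (T138), 2434, 2596 and 2186 (T143) and 3105, 4354 and 3686 (WT). No library of one group overlapped another group. Means were 1826 ± 173.4 (SD, n = 2), 2405 ± 206.7 (n = 3) and 3715 ± 624.9 (n = 3). Dnmt3a was lower in T138 than in WT by a log2 change of -1.01 ± 0.17 (limma, adjusted p = 0.00406) and lower in T143 than in WT by -0.62 ± 0.15 (adjusted p = 0.0144). Both comparisons use the same WT libraries. T143 against T138 gave 0.4 ± 0.17, which did not pass (adjusted p = 0.119). The call for T138 against WT was lost without T138 replicate 2 (adjusted p = 0.0536), and that for T143 against WT without both T138 replicate 1 and T143 replicate 3 (0.0679).

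Dnmt3b, the second enzyme of new methylation (chromosome 2, 153649411 to 153687730, plus strand), measured 128.9 and 163.4 (T138), 199, 183.3 and 133.7 (T143) and 171.5, 289.7 and 153.5 (WT). The groups overlapped and none of the 3 comparisons passed (limma, adjusted p = 0.524 to 0.703). Its libraries held 100 to 272 reads, and the interval for T138 against WT reached from -1.26 to 0.39 on the log2 scale. Per transcript length there were 9.34 to 21.5 Dnmt3b transcripts for every 100 of Dnmt3a, with 14.8 and 21.5 in T138, 13.7 to 18.3 in T143 and 9.34 to 14.9 in WT.

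Tet1 (chromosome 10, 62804570 to 62887469, minus strand) gave the largest change of the 8 genes in both comparisons with T138. It measured 113.2 and 150.7 (T138), 997, 962.1 and 413.4 (T143) and 556.5, 682.7 and 389.1 (WT). Both T138 libraries lay below all others, at 115 and 178 reads against 334 to 808, whereas T143 and WT overlapped. Tet1 rose in T143 against T138 by a log2 change of 2.48 ± 0.39 (limma, adjusted p = 0.00198) and was lower in T138 than in WT by -2.01 ± 0.39 (adjusted p = 0.00858). T143 against WT gave 0.47 ± 0.35 and did not pass (adjusted p = 0.36). The rise against T138 passed in 22 of 22 alternatives, with changes from 2.26 to 2.9. The difference from WT passed in 21 of 22 and was lost without T138 replicate 1 (-1.8, adjusted p = 0.0734). T143 replicate 3, the library with the most neutrophil signal, had the lowest Tet1 of its group, and without it the change against T138 was 2.9.

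Tet2, an oxidase that with Tet3 is known to keep the Foxp3 element unmethylated (chromosome 3, 133463677 to 133545136, minus strand), went the other way. It measured 2069 and 1864 (T138), 748.3, 1069 and 1301 (T143) and 1855, 3235 and 2151 (WT). All T143 libraries lay below all others, and T138 and WT overlapped. Tet2 was lower in T143 than in WT by a log2 change of -1.21 ± 0.24 (limma, adjusted p = 0.00496), a call kept in 22 of 22 alternatives, with changes from -1.39 to -0.98. It fell against T138 by -0.95 ± 0.27 (adjusted p = 0.0285). That call passed in 15 of 22 alternatives, and leaving out either T138 library ended it (adjusted p = 0.14 for replicate 1 and 0.111 for replicate 2). So did leaving out T143 replicate 1 (0.075), T143 replicate 2 (0.0626) or WT replicate 3 (0.0511). It was 0.0649 without T143 replicate 1 and WT replicate 1 together, and 0.0955 without T138 replicate 1 and T143 replicate 3 together. T138 against WT gave -0.26 ± 0.27 (adjusted p = 0.614). Within T143, Tet2 was highest and Tet1 lowest in replicate 3, where neutrophil markers took 3.37% of signal, and without that library Tet2 changed by -1.13 against T138 and -1.39 against WT (adjusted p = 0.0184 and 0.00491).

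Tet3 (chromosome 6, 83362373 to 83457208, minus strand) measured 3883 and 4018 (T138), 5982, 7183 and 4792 (T143) and 5437, 9885 and 6401 (WT). Both T138 libraries lay below all others, but no comparison passed. Between T143 and T138 the log2 change was 0.58 ± 0.24 (limma, adjusted p = 0.115). Between T138 and WT it was -0.83 ± 0.24 (0.0547), and between T143 and WT -0.25 ± 0.22 (0.454). The change for T138 against WT passed in 4 of 22 alternatives, with adjusted p from 0.0106 to 0.212, and that for T143 against T138 in 2 of 22, from 0.0325 to 0.301.

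Tet3 was the most abundant TET transcript per length in every library. It made up 60.4 and 63.3% of summed TET signal (T138), 78.4, 78.2 and 72.1% (T143) and 67.4, 69.4 and 69.2% (WT). Tet2 made up 38.2 and 34.9% (T138), 11.7, 13.8 and 23.2% (T143) and 27.3, 27 and 27.6% (WT). Tet1 held 1.34 and 1.8% (T138), 9.92, 7.95 and 4.72% (T143) and 5.24, 3.64 and 3.19% (WT). The Tet2 and Tet3 shares did not overlap between any of the groups, and WT lay between the lines for both. The shares of a library are parts of the same sum, so those of Tet2 and Tet3 are not independent. The Tet1 share was lowest in T138, and T143 replicate 3 lay inside the WT range. The summed level was 589 and 582 per kb in T138, 610 to 842 in T143 and 739 to 1310 in WT. These shares are descriptions with no test.

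**Figure D3:**
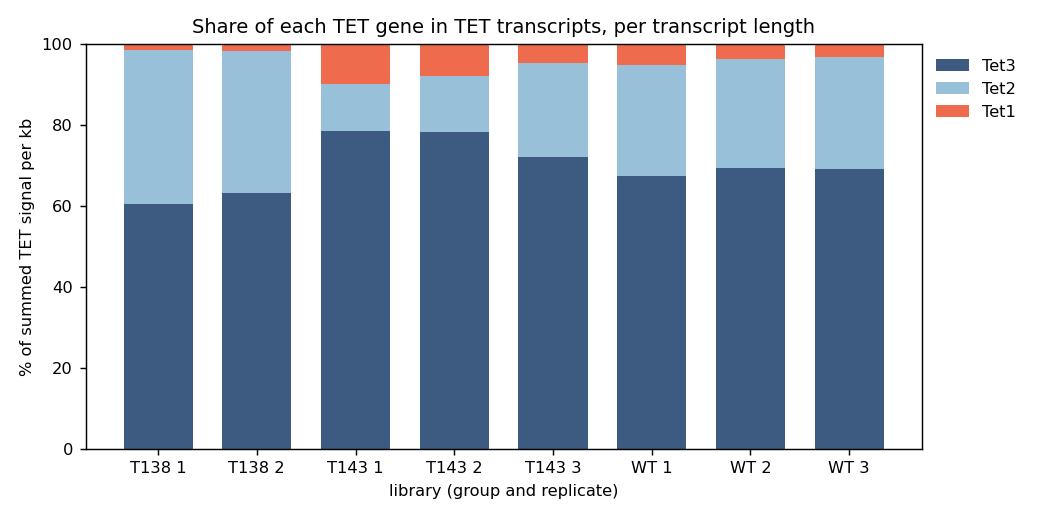
Share of Tet1, Tet2 and Tet3 in summed TET signal per kb of transcript, in percent, for each library. Tet3 forms 60.4 to 78.4% of each bar, and Tet2 forms 34.9 to 38.2% in T138 and 11.7 to 23.2% in T143.

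The start windows of Tet1 and Tet2, the TET genes that changed, are shown because they differ in CpG sites, the substrate of the enzymes themselves. Capitals here mark CpG. The windows are Tet1 chr10:62887275-62887574 and Tet2 chr3:133544341-133544640, both on the minus strand. The Tet2 start is that of the GENCODE model of the listed transcript. For Tet1 that model starts 11794 bases upstream of this RefSeq start, outside the RefSeq gene bounds given above.
Tet1: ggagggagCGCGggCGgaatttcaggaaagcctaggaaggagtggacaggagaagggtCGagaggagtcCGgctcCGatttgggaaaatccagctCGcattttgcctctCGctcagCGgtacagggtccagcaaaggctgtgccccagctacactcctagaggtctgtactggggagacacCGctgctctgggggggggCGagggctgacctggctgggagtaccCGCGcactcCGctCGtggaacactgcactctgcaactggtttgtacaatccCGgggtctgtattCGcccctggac
Tet2: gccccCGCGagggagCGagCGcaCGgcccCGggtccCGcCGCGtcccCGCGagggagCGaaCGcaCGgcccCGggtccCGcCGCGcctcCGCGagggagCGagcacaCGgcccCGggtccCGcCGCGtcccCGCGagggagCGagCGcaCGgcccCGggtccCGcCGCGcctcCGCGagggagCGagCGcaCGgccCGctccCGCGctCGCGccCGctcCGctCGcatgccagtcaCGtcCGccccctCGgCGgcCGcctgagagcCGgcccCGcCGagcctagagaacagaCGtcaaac
The Tet2 window held 57 CpG sites, and 99.8% of 32851 promoter windows held fewer. Tet1 held 17, with 68.6% below it, and Tet3 22, with 76.9% below it. The 2 windows nearest the GENCODE start of Dnmt3a held 46 and 47. The median over all windows was 7, and methylation at these sites was not measured here.

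Mbd2, the methyl-CpG reader (chromosome 18, 70568225 to 70629134, plus strand), was the steadiest of the 8 genes. It measured 3654 and 3529 (T138), 3154, 2851 and 3637 (T143) and 3432, 3098 and 3180 (WT), a coefficient of variation of 8.71% over all 8 libraries. Both T138 libraries lay above all WT libraries, by little, and T143 overlapped both groups. No comparison passed (limma, adjusted p = 0.441 to 0.946), and the 95% intervals lay within -0.49 and 0.47 on the log2 scale. Per transcript length it was the highest member in every library, at 1460 to 1870 per kb, followed by Dnmt1 (614 to 994) and Tet3 (356 to 907). Dnmt3a (176 to 450), Tet2 (81.5 to 352) and Uhrf1 (47.2 to 344) formed the middle of the order and overlapped over libraries. Dnmt3b (29.8 to 67.1) and Tet1 (7.88 to 69.4) were lowest. Tet2 stood above Dnmt3a in both T138 libraries and below it in all T143 and WT libraries.

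**Figure D4:**
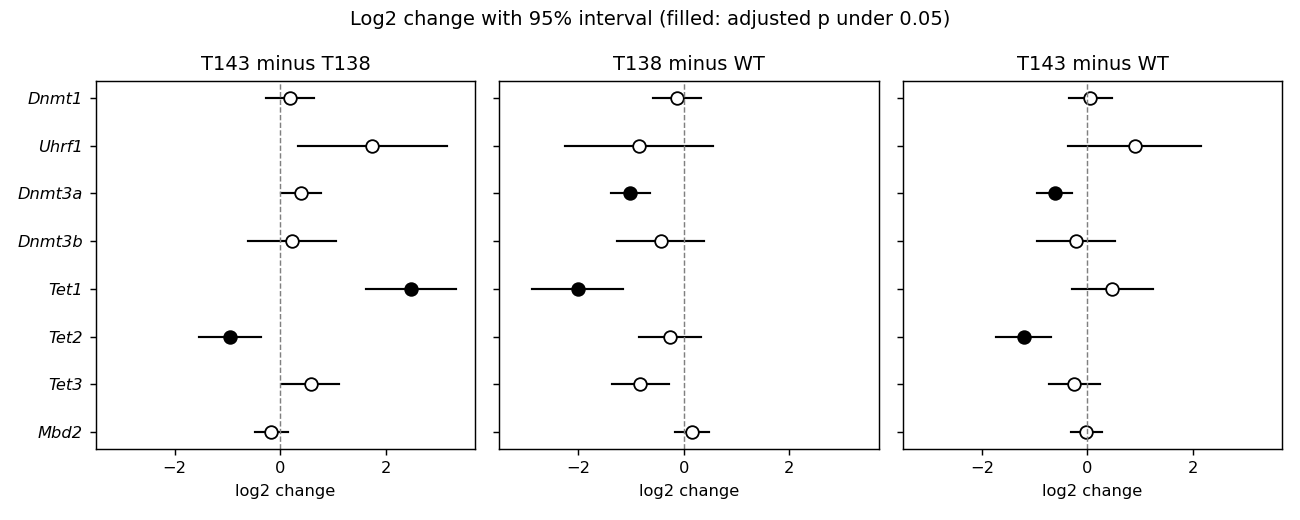
Log2 change of each gene with its 95% interval from limma, for the 3 comparisons; filled points have an adjusted p under 0.05. Tet1 has changes of 2.48 and -2.01 in the comparisons with T138, Tet2 of -0.95 and -1.21 in those with T143, and Dnmt3a of -1.01 and -0.62 in those with WT.

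Partners of the machinery were followed in 4 companion lists. In the list of methylation partners 1 of 8 genes rose and 1 fell in T143 against T138, and the same counts held for T138 against WT. None passed for T143 against WT (limma). Cdca7, a chromatin remodelling cofactor, rose in T143 against T138 (log2 change 0.93 ± 0.26; limma, adjusted p = 0.0289), a call kept in 16 of 22 alternatives. Without T138 replicate 1 and T143 replicate 3 the change of Cdca7 was 0.6 and its call ended (adjusted p = 0.242). Trim28, a corepressor, was lower in T138 than in WT (-0.64 ± 0.15, adjusted p = 0.0198). Zfp57, which protects methylation at imprinted loci, was at 58.07 and 45.72 in T138, at most 1.27 in T143 and 3.8 to 5.51 in WT. Calls in this list rose to 5 for T143 against T138 without T143 replicate 1 and WT replicate 1, and fell to 1 without T138 replicate 1 and T143 replicate 3. For T138 against WT there was 1 call without either pair. Zfp57 passed as lower in T143 than in T138 (adjusted p = 0.00352), and this call was kept in 21 of 21 alternatives. It passed as higher in T138 than in WT (0.0419), a call kept in only 6 of 21, with adjusted p from 0.00221 to 0.175. With at most 1 read in each T143 library, no fold is given for it.

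Among 13 tested demethylation partners 3 rose and 2 fell in T143 against T138, and 1 fell in T138 against WT. In T143 against WT 2 rose and 2 fell. These counts stand beside 21.0, 11.0 and 23.8% of all tested genes, in that order. Without T138 replicate 1 and T143 replicate 3, 3 genes rose and 0 fell in T143 against T138, so that both falls ended. Ogt, a glycosyltransferase that binds TET proteins, measured 15443 and 19817 (T138), 6311, 8295 and 6546 (T143) and 12643, 25511 and 15453 (WT). As for Tet2, all T143 libraries lay below all others, and Ogt fell in T143 against T138 (-1.32 ± 0.26; limma, adjusted p = 0.00667) and against WT (-1.29 ± 0.24, adjusted p = 0.00352). The Ogt call against WT was kept in 22 of 22 alternatives and that against T138 in 20, and without T138 replicate 1 and T143 replicate 3 the latter ended (log2 change -1.45, adjusted p = 0.0532), as it did without T138 replicate 2 (0.0804). Idh2 and Idh1, whose products include the TET cosubstrate, were higher in T143 than in WT by 0.95 ± 0.24 and 1.59 ± 0.32 (adjusted p = 0.0177 and 0.0057), and Idh2 rose by 1.56 ± 0.27 against T138. Parp1, of base excision repair, was lower in T138 than in T143 and WT, with changes of 0.85 ± 0.15 for T143 against T138 and -0.76 ± 0.15 for T138 against WT. Without T138 replicate 1 and T143 replicate 3 the Parp1 call of T138 against WT ended (adjusted p = 0.0579), and without T143 replicate 1 and WT replicate 1 the Idh2 call against WT ended (0.0877).

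Of 17 methyl-CpG readers and NuRD subunits, 3 rose and 3 fell in T143 against T138, where 21.0% of all tested genes passed. In T138 against WT 1 rose and 2 fell, beside 11.0%, and in T143 against WT 2 rose and 2 fell, beside 23.8%. The 6 calls of T143 against T138 became 2, with 1 rise and 1 fall, when either of these pairs of libraries was left out. The reader Zbtb38 was at 1645 and 1723 in T138 and between 748.3 and 942.5 in the other 6 libraries (T143 against T138 -1.06 ± 0.15; limma, adjusted p = 0.00139). The NuRD helicase gene Chd4 was lowest in T138 (0.67 ± 0.13 for T143 against T138, adjusted p = 0.00624). Chd3 was lower than in WT in T138 (-0.87 ± 0.21) and T143 (-1.04 ± 0.18). The call of Chd3 in T138 against WT was kept in 15 of 22 alternatives, and that in T143 against WT in 22. Hdac1 was lower in T143 than in WT (-1.13 ± 0.24) and Zbtb33 higher (0.65 ± 0.14).

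The methyl donor cycle, which supplies the methyl group, had calls in 1 direction in each comparison with T138. In T143 against T138 5 of 10 genes rose and 0 fell, where 10.8% of all tested genes were higher and 10.2% lower. The median log2 change was 0.61 beside 0.15 over all tested genes. In T138 against WT 4 fell and 0 rose, where 5.30% of all tested genes were lower (median -0.59, beside -0.06 over all genes). Mthfd1, a folate enzyme, measured 432.1 and 583.4 (T138), 1407, 2223 and 1540 (T143) and 971.2, 1029 and 1313 (WT). Changes were 1.75 ± 0.23 for T143 against T138 (limma, adjusted p = 0.000921) and -1.12 ± 0.23 for T138 against WT (0.0125). Shmt1 changed by 2.15 ± 0.55 and -2.28 ± 0.55 in the same comparisons, and Shmt2 by -0.82 ± 0.18 in T138 against WT. Ahcy was listed at 0 in both T138 libraries and at 4.13 to 23.56 in the others, and as it has pseudogene copies its low values are uncertain. Its call in T138 against WT was kept in 6 of 22 alternatives, with adjusted p from 0.0194 to 0.178. Without T138 replicate 1 and T143 replicate 3 the counts were 1 for T143 against T138, Mthfd1, and 0 for T138 against WT, and without T143 replicate 1 and WT replicate 1 they were 3 and 2.

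**Figure D5:**
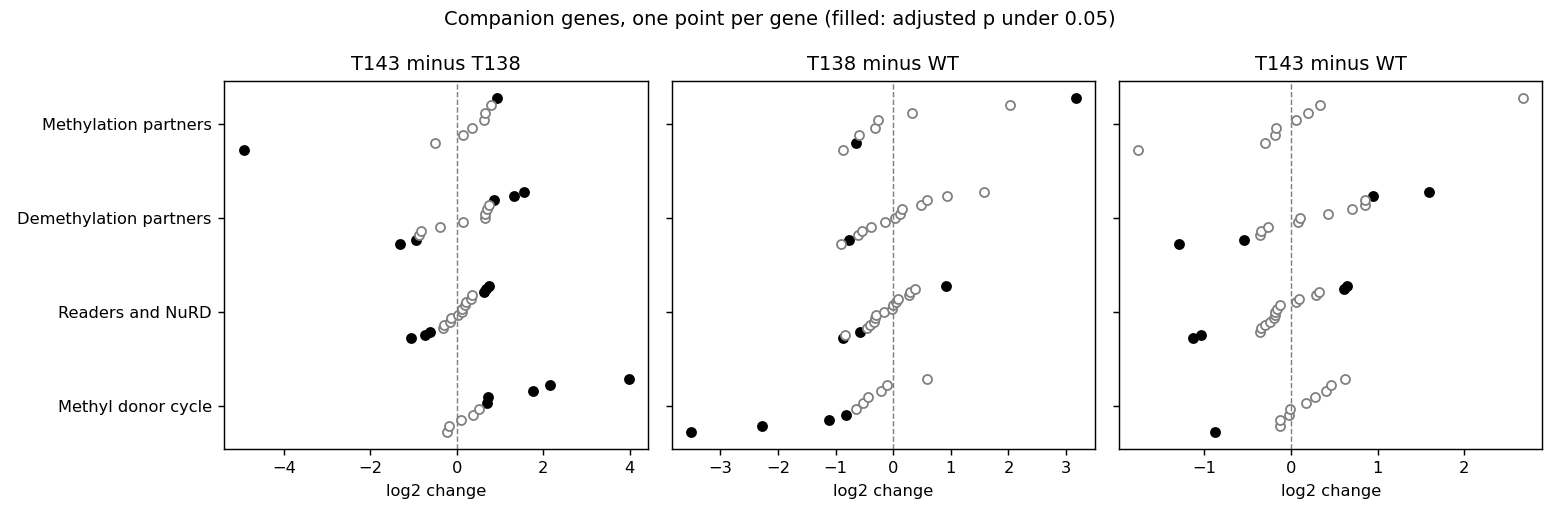
Log2 change of each tested gene of the 4 companion lists in the 3 comparisons, one point per gene, filled where the adjusted p was under 0.05; the horizontal axes differ between panels. In the methyl donor cycle row the filled points lie to the right for T143 minus T138, 5 of 10 genes, and to the left for T138 minus WT, 4 of 10, including Ahcy, which is listed at 0 in T138.

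The 6 Treg genes known to carry demethylated regions were Foxp3, Il2ra, Ctla4, Ikzf2, Ikzf4 and Tnfrsf18. All 6 fell in T143 against T138 and 5 in T143 against WT, beside 10.2% and 12.1% of all tested genes. Ikzf4 and Il2ra were lower in T138 than in WT, beside 5.30% of all tested genes. The Il2ra call there was kept in 12 of 22 alternatives. Foxp3, on which the cells were sorted, measured 41854 and 41161 (T138), 3920, 6299 and 8694 (T143) and 29773, 36362 and 35360 (WT). As for Tet2, the T143 libraries lay below all others. This direction was known from earlier results of these data and supports nothing here.

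For each member, the 2 genes with the highest Pearson correlation of log2(value + 1) over the 8 libraries were taken from 7599 genes above the median level. The libraries share group, depth and cell makeup, so the correlations are descriptions. Each r was picked as among the highest of 7599 over only 8 libraries, so its size does not measure shared regulation. Tet2 ran with Dst (r = 0.993) and Asxl1 (0.981), and Asxl1, a chromatin regulator gene, was at 2950 to 4480 in T143 and 5570 to 8360 elsewhere. Tet1 ran with Mtss1 (0.986) and Rapgef6 (0.986), and Mtss1 was at 314 and 368 in T138 and 746 to 1890 elsewhere. Uhrf1 ran with Rab5b (0.977) and Kif11 (0.973), a motor gene of the mitotic spindle. Dnmt1 ran with Incenp (0.952), a mitotic gene, and with the heterochromatin protein gene Cbx5 (0.945). Dnmt3a ran with Wdr77 (0.979) and Tcf20 (0.977), Dnmt3b with Fubp1 (0.977) and Nr2c2 (0.965), and Tet3 with Smg1 (0.978) and Dhx29 (0.964). Mbd2, which varied least, ran with Sec11c (0.945) and Rnh1 (0.898).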

How the data were processed

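Poly(A) RNA of sorted cells was sequenced with a stranded kit, per the labels' protocols. The deposited values are a signal: from the values, reads per gene, scaled by the authors so that every library sums to 15.59 M. STAR 2.5.2b, HOMER 4.8, CASAVA 1.8.2, edgeR and mm10 appear without a role in the submitters' processing notes. How strand and multi-mapped reads were handled: not given in the sources used here. Reads recovered from the smallest step were whole for 100% of values (tolerance 0.01). A count of 3 reads corresponds to a value of 2.07 to 5.97, which covers counting error only; the labels name no molecular identifiers.

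Tests used limma 3.58.1 in R 4.3.3 on log2(value + 1), with trended and robust eBayes variances, over the 15547 of 24453 genes that reached a value of 1 in 2 or more libraries. All 8 libraries entered 1 fit of group means without covariates. Changes of low genes are understated on this scale. The median change of all genes was 0.15 (T143 minus T138), -0.06 (T138 minus WT) and 0.05 (T143 minus WT). Each change was tested against 0, and this median was not subtracted outside the alternative with median centring. Alternatives used edgeR 4.0.16 and DESeq2 1.42.0 on recovered reads, where edgeR (TMM) called 2786, 1344 and 3277 genes in the order above and limma 3272, 1716 and 3698. Others changed the pseudocount, filter, scaling or samples, or added a replicate block. The limma procedure was tested on simulated data, in the order above, with 200 genes changed among 15180, 15189 and 15203 tested. The changed genes were drawn from those above a minimum mean of reads, and they were fewer than the genes called in the data. The rates therefore need not hold for the data or for low genes. The procedure recovered 33, 19 and 49% of 2-fold changes and 81, 78 and 82% of 4-fold changes. False calls made up 5.8, 9.3 and 5.1% of calls. A change that did not pass is therefore not shown to be absent. Each library's column has its own identifier, but the labels do not state that replicates are separate mice; p-values measure the spread between libraries, which may be technical.

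Gene bounds and start windows came from RefSeq tables of GRCm38.p6, and transcript lengths and starts from GENCODE vM21 by the transcript that the table lists. Levels of different genes were compared per kb of that transcript. No exon of the listed transcripts overlapped another annotated gene. The members and lists were chosen with earlier results of these data known. Named genes were the 8 members, up to 3 genes per companion list and comparison with the smallest adjusted p, and the 2 genes most correlated with each member; some genes that this rule names are not reported here.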

Additional observations from a re-analysis of the deposited data

How the results depend on the processing

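Across 22 alternatives per comparison, Tet1 (T143 against T138) and Tet2 (T143 against WT) kept their direction and call in every one. Dnmt3a and Tet1 in T138 against WT and Dnmt3a in T143 against WT kept them in 21. Other pseudocounts, filters, median centring, quantile normalization and edgeR changed no member's call. DESeq2 added Uhrf1 for T143 against T138 and Tet3 for T138 against WT, and a fit of T143 and T138 alone added Uhrf1. Leaving out single libraries gave 1347 to 3668 genes and 1 to 3 members called for T143 against T138, 757 to 1779 genes and 1 to 4 members for T138 against WT, and 2426 to 3558 genes and 2 members for T143 against WT. The lowest gene counts came without T138 replicate 2 (1347 and 757) and T143 replicate 2 (2426). The count for T143 against T138 was also 2046 without T138 replicate 1 and 2004 without T143 replicate 2, and that for T138 against WT 1001 without T138 replicate 1 and 1096 without WT replicate 3. Where T138 keeps 1 library, it is assumed to vary like the other groups. Without both T138 replicate 1 and T143 replicate 3, 1676 genes and 1 member passed for T143 against T138, 936 genes for T138 against WT, and 1 member for T143 against WT. These fits have fewer samples; other causes were not tested.

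With the replicate number as a block, 4 members passed between T143 and T138 (Uhrf1 and Tet3 added), 3 between T138 and WT, 2 between T143 and WT, and 3109, 1804 and 3940 genes. The numbers are not shown to pair the libraries: deviations of same-numbered T143 and WT libraries correlated at 0.024, 0.055 and 0.022, and each T143 library correlated best with its own number among WT.

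Small changes that never passed turned direction. For T143 against WT, Dnmt1 was at -0.08 with median centring, -0.05 without both T143 replicate 1 and WT replicate 1, and -0.01 with T138 replicate 1 and T143 replicate 3 left out. Mbd2 there was at 0.03 with quantile normalization, 0.04 with edgeR (TMM or RLE) and DESeq2, and 0.04 without both T143 replicate 1 and WT replicate 1. Leaving out single libraries gave -0.16 to 0.19 for Dnmt1 (T143 against WT), -0.34 to 0.01 for Dnmt1 (T138 against WT), -0.39 to 0.06 for Dnmt3b, -0.43 to 0 for Tet3 and -0.11 to 0.07 for Mbd2 (T143 against WT). The cause was not tested. The fewest reads stood behind Dnmt3b (100 to 272) and, in T138, Tet1 (115 and 178); the effect of depth was not tested.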
